A study of Mus musculus with 2 samples.

Results

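Ccdc80, Ppa1, Rras2, Fam89a, Sh3kbp1, Serinc5, Rhbdl2, Smim5 and Slc25a13 are 9 genes of the developing growth plate, of 18193 named genes on the arrays. They were chosen by a large rise in signal from cartilage rich in round chondrocytes to cartilage rich in columnar and hypertrophic chondrocytes, and because none of them is a standard marker of those zones. That difference is therefore given below as a description with no test. Every probe set that names 1 of the 9 genes alone was used, 16 in all.

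Expression was measured on 2 Affymetrix Mouse Genome arrays. The cartilage came from E17.5 embryos of the C57BL/6J strain, all wild type, with no added agent or altered allele in either group. The round array took total RNA of cartilage plate portions rich in round chondrocytes, the columnar/hypertrophic (C/H) array that of portions rich in both later cell types, and 3 portions were mixed for each. There was 1 array per group, so no spread between animals or portions was measured, no p-value or standard error can be given, and a gene was called higher or lower at a 2-fold difference. The portions were enriched and not sorted, the columnar and hypertrophic zones share an array, and a change in the number of cells of a type cannot be told apart from a change in RNA per cell.

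In the growth plate, round chondrocytes at the end of the bone flatten into columns, divide, leave the cell cycle and enlarge into hypertrophic cells. Hypertrophic cells remodel the matrix around them and prepare it for mineral. The 9 genes act in different parts of a cell. Ccdc80 encodes a secreted, matrix-associated protein, Ppa1 the cytosolic inorganic pyrophosphatase, and Rras2 a Ras-related small GTPase also called TC21. Sh3kbp1 encodes the SH3-domain adaptor CIN85, which binds CBL ubiquitin ligases during receptor endocytosis. Serinc5 encodes a multipass membrane protein of the serine incorporator family, Rhbdl2 a rhomboid protease that cuts proteins within the membrane, and Slc25a13 the mitochondrial aspartate/glutamate carrier citrin. Smim5 encodes a small integral membrane protein.

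The labels were compared with lists of markers, which were chosen with earlier results of these data known. Of 11 measured prehypertrophic and hypertrophic markers, 9 were at least 2-fold higher on the C/H array and none was lower by 2-fold. Over all measured genes 4.31% were at least 2-fold higher and 6.37% lower. The signals of that list summed to 6848 and 62497 on the round and C/H arrays. On the round and C/H arrays in turn, the hypertrophic collagen gene Col10a1 read 24.2 and 10818, the hedgehog ligand gene Ihh 143 and 2153, and the channel gene Panx3 49.4 and 16143. The collagenase gene Mmp13, a marker of late hypertrophy, read 22.8 and 11.7, both under the floor defined below, and the angiogenic factor gene Vegfa read 3087 and 1657, 1.86-fold lower on the C/H array. Of 10 measured markers of round and articular chondrocytes, 9 were at least 2-fold lower, among them the lubricant gene Prg4 at 2821 and 45.2. Genes of all chondrocytes were bright on both arrays, with signals on the round and C/H arrays of 33307 and 37936 for Col2a1, the main cartilage collagen, 25528 and 32746 for the proteoglycan Acan, and 7815 and 7203 for the regulator Sox9. These genes belong to a list of 16 columnar and cartilage matrix markers, of which 2 were at least 2-fold higher and 14 lay within 2-fold. The median log2 difference of that list was 0.31, so it did not set the columnar zone apart. Markers of perichondrium, fibroblasts and tendon were also lower on the C/H array, 7 of 11 measured by at least 2-fold, with summed signals of 91883 on the round and 50349 on the C/H array. Skeletal muscle markers were under the floor in 7 of 10 cases, but Tnnt3 had 63.4 on the round and 429 on the C/H array. None of 5 erythroid markers on the arrays was above the floor. The part of these other tissues in the differences of the 9 genes was not tested.

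Values are MAS5 signals, which are linear intensities. A floor of 100.5 marks the level of chemosensory receptor genes, which cartilage should not use, and signals under it were raised to it before log2 differences were taken. Where the round signal lay under the floor, the difference is a lower bound and is written "at least". The brightest probe set stands for a gene unless another is named. All 9 genes were at least 2-fold higher on the C/H array, where 4.31% of the 11703 genes above the floor on at least 1 array were. All 9 were also at least 4-fold higher, a size reached by 0.872% of the measured genes, and 6 were at least 8-fold higher, a size reached by 0.273%. Those shares are given as background only, because the same difference chose the genes. The median log2 difference of the 9 genes was 3.26, and that of all measured genes was -0.05.

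Ccdc80 had the largest difference of the 6 genes that were above the floor on both arrays. Its brighter probe set, 1424186_at, read 324 on the round array and 5407 on the C/H array, a log2 difference of 4.06 or 16.7-fold. The other, 1424187_at, read 9.66 and 1703, at least 16.9-fold higher. The second value is only a lower bound set by the floor, so the sizes of the differences at the pair cannot be compared.

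Ppa1 was bright on both arrays. The probe set 1416939_at read 2281 on the round array and 21832 on the C/H array, 9.57-fold higher with a log2 difference of 3.26. The enzyme splits pyrophosphate, a by-product of many biosynthetic reactions, into phosphate inside the cell. No other probe set names Ppa1 alone, so this value has no second measurement.

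Rras2 was measured by a pair of probe sets, neither of them near the floor. The probe set 1417398_at read 324 and 2660 on the round and C/H arrays, 8.21-fold higher, and 1448689_at read 358 and 1689, 4.72-fold higher. The pair differed by 0.80 on the log2 scale. Over the 4825 genes for which such a range could be had from values over the floor, its median was 0.42 and the 95th percentile 1.23.

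Fam89a had signals of 304 on the round and 2331 on the C/H array at its only probe set, 1427356_at, a 7.68-fold difference. Serinc5 had signals of 941 and 5887 at its only probe set, 1433571_at, a 6.25-fold difference and the smallest of the 9. Both genes were well above the floor on the round array too, so their round chondrocyte portions had a measured level.

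Sh3kbp1 had 4 probe sets. Its brightest probe set, 1460337_at, read 313 on the round array and 2247 on the C/H array, 7.17-fold higher, and 1431592_a_at read 171 and 953, 5.58-fold higher. Another pair was under the floor on the round array. The probe set 1432269_a_at read 88.0 and 363, at least 3.62-fold higher, and 1456261_at read 35.2 and 123, at least 1.22-fold higher. The last was the only one of the 16 probe sets not called at 2-fold. Its signal on the C/H array was just above the floor, so its bound does not show a difference under 2-fold. Without a floor and with a pseudocount of 1, all 16 were at least 2-fold higher. With the mean over its probe sets in place of the brightest, the log2 difference of Sh3kbp1 was 1.87 in place of 2.84, under 4-fold. That mean takes both bounds as values, so it is a lower bound and does not show a difference under 4-fold.

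Rhbdl2, Smim5 and Slc25a13 were under the floor on the round array, so only a bound on their difference can be given. Differences of at least 2-fold that were such bounds made up 0.829% of the measured genes. Rhbdl2 had 3 probe sets, and each passed the floor on the C/H array alone. The brightest, 1442819_at, read 94.7 and 1833, at least 18.2-fold higher, while 1440618_at read 32.2 and 431, at least 4.29-fold higher, and 1445233_at read 18.1 and 260, at least 2.59-fold higher. With the median of the 3 bounds the log2 difference of Rhbdl2 was 2.10 in place of 4.19. The order of these bounds follows the signal on the C/H array, since the floor stands for the round signal in each.

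Smim5 had signals of 91.0 on the round and 1488 on the C/H array at 1435378_at, at least 14.8-fold higher. Slc25a13 had signals of 98.1 and 1312 at 1449481_at, at least 13.1-fold higher. Their round signals were just under the floor of 100.5, and each gene had 1 probe set.

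**Figure D1:**
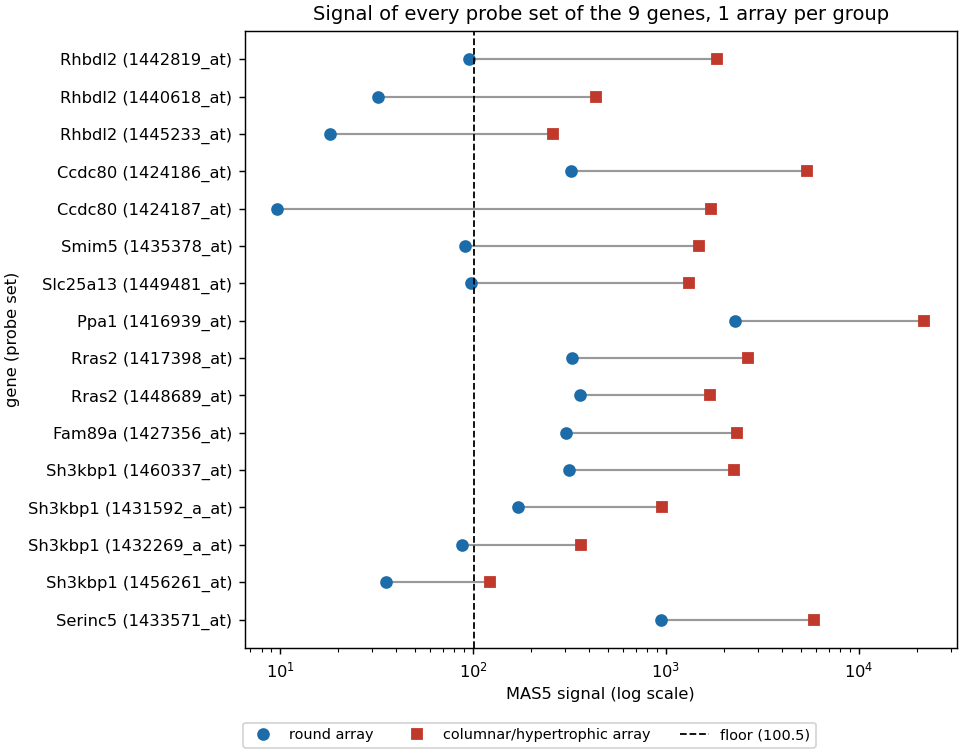
The MAS5 signal of each of the 16 probe sets of the 9 genes, on a log axis, with a circle for the round array and a square for the C/H array joined by a line. The dashed line is the floor of 100.5; 8 probe sets lie above it on both arrays, 8 lie under it on the round array, and every square lies to the right of its circle.

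With the floor, 15 of the 16 probe sets were called at least 2-fold and 13 at least 4-fold higher on the C/H array. Among all 21589 measured probe sets that name 1 gene, 4.27% were at least 2-fold higher. In 3 of the 4 genes with several probe sets, namely Ccdc80, Rras2 and Rhbdl2, every probe set was at least 2-fold higher. That held for 1.11% of the 7290 genes with several probe sets. The shares of 4.27% and 1.11% are background only, because the same difference chose the genes. A probe set under the floor on both arrays has no difference, so a gene with such a probe set cannot count towards the 1.11%. All of the 16 probe sets passed the floor on the C/H array. Probe sets of a gene are repeat measurements on an array and not replicates of a zone.

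Genes that passed the floor on each array were put in order of log2 difference, and there Ccdc80 stood at place 3. It came between Sgms2, a sphingomyelin synthase, at 27.9-fold and Prkg2, a cGMP-dependent protein kinase, with signals of 319.9 and 5124. Ppa1 stood at place 14, between Loxl4, a lysyl oxidase relative, at 10.4-fold and Tgm2, a transglutaminase, at 8.62-fold. Rras2 stood at place 17, between Grb14, an adaptor of receptor tyrosine kinases, at 8.26-fold and Lgmn, a lysosomal protease, at 8.04-fold. Fam89a followed Lgmn at place 19, ahead of the netrin receptor gene Unc5b at 7.60-fold. Sh3kbp1 was at place 22, between Arsi, a sulfatase gene, at 7.43-fold and P3h2, a collagen prolyl hydroxylase, at 7.12-fold. Serinc5 was at place 26, between Itga1, a collagen-binding integrin subunit, at 6.47-fold and Cd200, a cell surface glycoprotein, at 6.15-fold. Apart from the step above Ccdc80, each gene differed from its neighbours in this order by less than 0.37 on the log2 scale, the standard deviation between probe sets of a gene, so the order of such neighbours is not resolved.

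**Figure D2:**
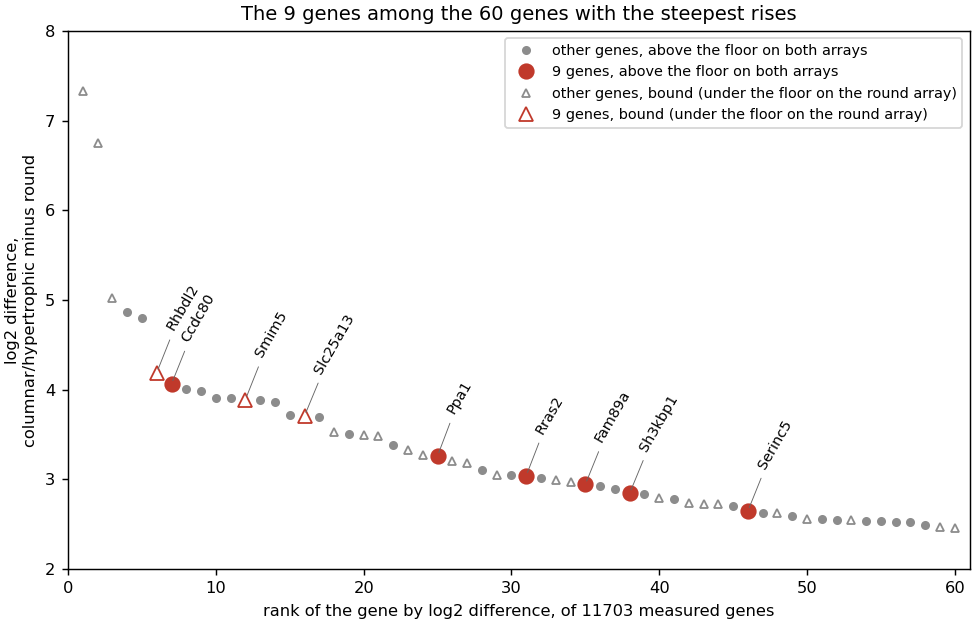
The log2 difference, columnar/hypertrophic minus round, against rank for the 60 genes with the steepest rises of 11703 measured genes, with the 9 genes in red and labelled. Filled circles were above the floor on both arrays and open triangles are bounds; a bound is drawn at its lowest value, so its rank is set by the floor. The 6 genes over the floor on both arrays run from Ccdc80, at 4.06, to Serinc5, at 2.64, with other genes between them.

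The starts of 7 of the 9 genes are in RefSeq promoter windows of build GRCm38.p6, each running from 250 bases before to 50 bases after an annotated start, with 11 windows in all because Sh3kbp1 and Rhbdl2 have several. The genes share a large difference, so the windows were searched on both strands for short binding motifs. These were TGTGGT of RUNX factors, ACAAAG and ACAATG of SOX factors, TGANTCA of AP-1, ACGTG of the hypoxia response, TGACGT of CREB-type factors and TATAAA of the TATA box. No motif was found in the windows of more than 3 of the 7 genes. TGTGGT occurred in Sh3kbp1 alone, in 1 of the 11 windows, and in 16.8% of all 32817 windows. TGANTCA occurred in Rhbdl2, Sh3kbp1 and Slc25a13, in 3 of the 11 windows, and in 7.81% of all windows. ACGTG occurred in Fam89a, Ppa1 and Slc25a13, also in 3 of the 11, and in 19.6% of all. ACAAAG was found in Sh3kbp1 alone, in 2 of the 11 windows (18.7% of all windows). ACAATG was in 1 window, of Slc25a13 (12.6%), TATAAA in 1, of Sh3kbp1 (13.6%), and TGACGT in none of the 7 genes (7.51%). A match is a run of letters and not a bound site, and no binding was measured.

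The windows of the 3 genes with ACGTG and the Sh3kbp1 window with the RUNX letters are printed to show where the matches fall, with every motif match in capitals, 5′ to 3′ in the direction of transcription. They are Ppa1, chr10:61648371-61648670 on the plus strand, Fam89a, chr8:124751817-124752116 on the minus strand, Slc25a13, chr6:6217124-6217423 on the minus strand, and the third window of Sh3kbp1, chrX:159840218-159840517 on the plus strand.
Ppa1: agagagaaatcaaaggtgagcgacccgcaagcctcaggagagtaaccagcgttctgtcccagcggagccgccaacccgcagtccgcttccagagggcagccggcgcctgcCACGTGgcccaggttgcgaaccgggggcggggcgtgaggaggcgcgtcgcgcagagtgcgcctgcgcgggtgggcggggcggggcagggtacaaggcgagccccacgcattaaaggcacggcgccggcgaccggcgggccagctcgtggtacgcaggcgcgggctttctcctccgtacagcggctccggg
Fam89a: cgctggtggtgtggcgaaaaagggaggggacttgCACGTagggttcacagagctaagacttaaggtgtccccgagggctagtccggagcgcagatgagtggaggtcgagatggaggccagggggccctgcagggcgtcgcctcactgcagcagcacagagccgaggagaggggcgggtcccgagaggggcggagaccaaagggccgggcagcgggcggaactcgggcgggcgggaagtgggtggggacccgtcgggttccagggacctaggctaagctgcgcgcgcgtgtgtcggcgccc
Slc25a13: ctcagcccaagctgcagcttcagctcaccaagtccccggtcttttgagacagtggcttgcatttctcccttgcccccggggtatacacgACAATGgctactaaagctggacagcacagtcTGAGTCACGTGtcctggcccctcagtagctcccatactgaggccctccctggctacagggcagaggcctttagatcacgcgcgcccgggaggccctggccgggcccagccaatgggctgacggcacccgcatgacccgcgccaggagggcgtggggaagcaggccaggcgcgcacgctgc
Sh3kbp1: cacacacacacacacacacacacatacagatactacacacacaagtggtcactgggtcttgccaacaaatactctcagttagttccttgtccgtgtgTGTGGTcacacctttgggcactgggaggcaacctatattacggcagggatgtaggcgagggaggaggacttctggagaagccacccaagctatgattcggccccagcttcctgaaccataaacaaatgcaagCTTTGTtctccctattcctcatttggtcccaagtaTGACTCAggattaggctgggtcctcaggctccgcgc

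In Ppa1 the capitals mark ACGTG read on both strands as 1 palindromic run, with its first base at -140 from the start, and in Fam89a the same letters on the minus strand. In Slc25a13 they mark a SOX motif and then an AP-1 motif that overlaps the hypoxia motif. In Sh3kbp1 they mark, in order, the RUNX motif, a SOX motif on the minus strand and an AP-1 motif. The windows also differed in CpG content, which was 38 CpG in Ppa1, 27 in Fam89a, 24 in Serinc5, 20 in Rras2 and 17 in Slc25a13. The median over all windows was 7. Sh3kbp1 had starts of both kinds, with 34 and 33 CpG in a pair of overlapping windows and 6 and 2 in the others, and the Rhbdl2 windows had 6 and 2. The arrays do not tell which start was used.

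Relatives and pathway partners of the 9 genes were set out in 12 lists by what is known of them. Without the 9 genes themselves, 158 were measured, of which 10 or 6.33% were at least 2-fold higher on the C/H array and 7 or 4.43% at least 2-fold lower. Over all measured genes these shares were 4.31% and 6.37%. The median log2 difference of the relatives was -0.01, close to that of all genes at -0.05. Scaling the arrays to equal medians left 2 of the relatives lower and moved the share of calls that were higher, over all genes, from 40.4% to 69.5%.

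Ccdc80 shares a domain with the sushi-repeat proteins Srpx and Srpx2, and both were lower where Ccdc80 was higher. Srpx2 had signals of 3827 on the round and 168 on the C/H array, 22.8-fold lower. Srpx had 4751 and 2363, 2.01-fold lower, and its log2 difference of -1.01 became -0.73 with equal medians, under 2-fold.

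Around Ppa1, 2 of 10 other measured genes of pyrophosphate and phosphate handling were at least 2-fold higher and none was lower. The mitochondrial pyrophosphatase Ppa2 read 512 on the round and 660 on the C/H array, a log2 difference of 0.37. Alpl, the alkaline phosphatase that splits pyrophosphate outside the cell, read 69.5 and 455, at least 4.53-fold higher. Nt5e, which makes adenosine from AMP at the cell surface, read 744 and 1866, 2.51-fold higher. Of its 3 probe sets 2 were measured, with log2 differences of 0.91 and 1.33. The mean over all 3 was 0.74, but it takes the probe set under the floor on both arrays as no difference. Ank, a membrane protein needed for pyrophosphate outside the cell, read 490 and 498. Slc20a2 read 610 and 814, a log2 difference of 0.42, while its other probe set gave 1.41. Enpp1 and Phospho1 were in this list but were not analysed.

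None of 13 other measured Ras-type GTPases reached 2-fold, and their log2 differences ran from -0.34 to 0.91. Rras read 1255 on the round and 1244 on the C/H array. Mras read 559 and 553 at its brightest probe set, and another, at 224 and 462, was 2.06-fold higher. Among 22 measured exchange factors, GTPase-activating proteins and effectors of Ras, none was called at 2-fold either, with differences from -0.85 to 0.79. Of the 22, 19 were above the floor on both arrays. The others were bounds and are not shown to lie within 2-fold, among them Rasgrp3, at 119 and 5.51, and Pik3cb, at 3.54 and 138. Over the probe sets of Braf the log2 differences ran from -1.15 to -0.10.

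Of 22 other measured adaptors, CBL ligases and endocytic partners of Sh3kbp1, 1 was at least 2-fold higher and 1 lower. Cd2ap, the closest relative of Sh3kbp1, read 1646 and 1438 on the round and C/H arrays, with log2 differences from -0.19 to 0.84 over 3 probe sets. Cblc, a CBL-type ligase, read 167 and 343, 2.05-fold higher, at the only 1 of its 2 probe sets that was measured. Dnm1, the dynamin best known from neurons, read 2209 and 780, 2.83-fold lower, also at the only 1 measured of 2 probe sets. With the mean over probe sets the log2 differences were 0.52 for Cblc and -0.75 for Dnm1. Each mean takes a probe set under the floor on both arrays as no difference, so it is not a second measurement.

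None of the 4 other serine incorporators measured was called at 2-fold in either direction. Serinc1 read 6364 on the round and 6301 on the C/H array and Serinc3 5657 and 5945, both with differences whose sign depends on the scaling. Serinc2 read 162 and 12.0, at least 1.62-fold lower, and Serinc4 705 and 411. In the same list of serine-derived lipid synthesis, 1 of 11 other measured genes was at least 2-fold higher. It was Sptlc2, a subunit of serine palmitoyltransferase, the first enzyme of sphingolipid synthesis, which read 783 and 2713, 3.46-fold higher. Its 3 probe sets gave log2 differences from 0.84 to 1.79, and with their median the difference was 0.95, under 2-fold.

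Of the nearest relatives of Rhbdl2, Rhbdl1 read 141 on the round and 85.6 on the C/H array and Rhbdl3 106 and 42.3, both near or under the floor. Of 8 other rhomboid genes measured, 1 was at least 2-fold higher, the inactive rhomboid Rhbdf2, at 83.6 and 368, at least 3.66-fold higher. Rhbdf1, its relative, read 1326 and 1303. Rhomboid proteases cut membrane-bound ligands, and of 14 measured EGF receptor ligands, receptors, sheddases and other reported substrates none was at least 2-fold higher. The ephrin Efnb3 read 231 and 95.9, at least 2.30-fold lower, and thrombomodulin, Thbd, read 237 and 29.4, at least 2.36-fold lower. With equal medians both bounds fell under 2-fold, which does not show that the differences themselves were under 2-fold.

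Slc25a13 passes aspartate out of mitochondria in exchange for glutamate, a step of the malate-aspartate shuttle that carries reducing power into mitochondria. Its close relative Slc25a12, or aralar, read 1156 on the round and 889 on the C/H array, a log2 difference of -0.38. Of 8 other measured genes of the shuttle and of linked steps, 1 was at least 2-fold higher, the cytosolic aspartate aminotransferase Got1, at 622 and 1505 or 2.42-fold. The mitochondrial enzymes Got2 and Mdh2 differed by 0.52 and 0.75 and the cytosolic Mdh1 by -0.11 on the log2 scale.

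Among 31 other measured mitochondrial SLC25 carriers, 3 were at least 2-fold higher and 2 lower. The citrate carrier Slc25a1 read 989 on the round and 2335 on the C/H array, 2.36-fold higher. The ADP/ATP carrier Slc25a5 read 3320 and 9449, 2.85-fold higher, with log2 differences from 1.16 to 1.55 over 8 probe sets. The carnitine/acylcarnitine carrier Slc25a20 read 310 and 756, 2.44-fold higher. The iron carrier mitoferrin, Slc25a37, read 650 and 290, 2.24-fold lower, and the uncoupling-type carrier Slc25a27 read 217 and 97.5, at least 2.16-fold lower. With equal medians Slc25a37 fell under 2-fold. The bound of Slc25a27 did too, which does not show that its difference was under 2-fold.

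Of 17 other measured genes named small integral membrane protein, a name that rests on size and not on descent, 1 was at least 2-fold higher. It was Smim6, which read 11.6 on the round and 425 on the C/H array, at least 4.23-fold higher. Fam89b, the relative of Fam89a, was not analysed here because its probe set also names another gene.

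**Figure D3:**
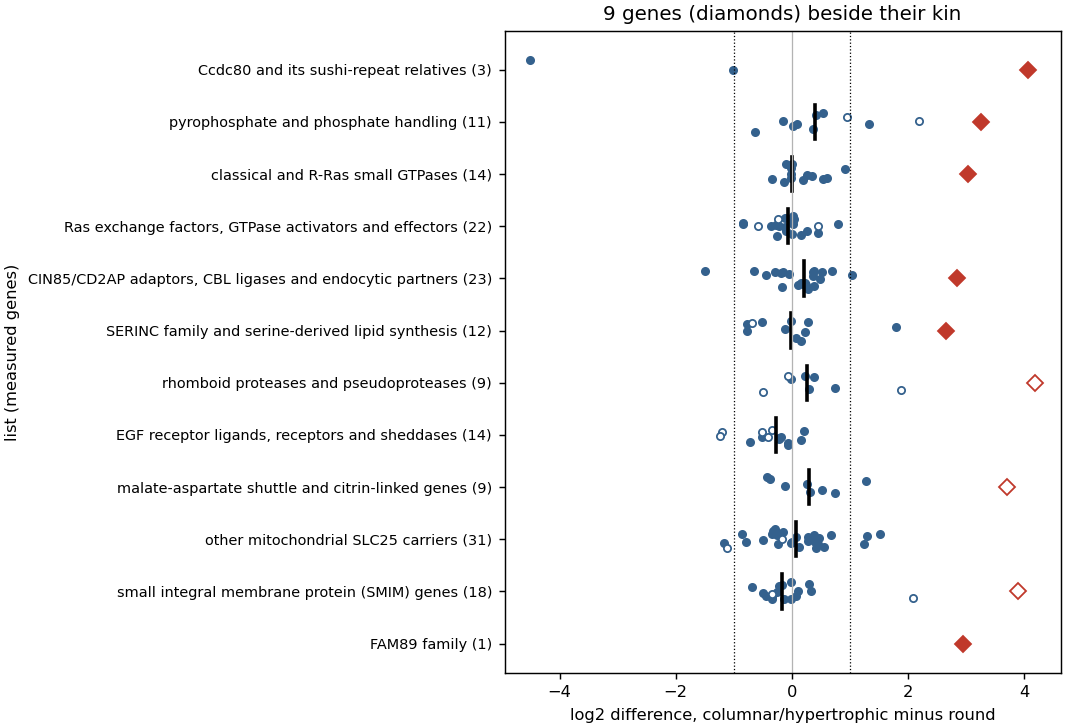
Log2 differences, columnar/hypertrophic minus round, of the measured genes of each of the 12 lists, with the 9 genes as red diamonds, their relatives as blue circles, open symbols for bounds, a black bar at the median of the relatives where a list holds over 2, and dotted lines at 2-fold. The count of measured genes is in brackets. Every diamond lies to the right of all relatives on its row, and 141 of the 158 relatives are drawn within 2-fold. A bound is drawn at its smallest size, so an open symbol there is not shown to lie within 2-fold.

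The calls on the 9 genes were followed under 9 other ways of scaling, flooring and summarising the signals. All 9 genes were at least 2-fold higher in each. The log2 difference of Ccdc80 ran from 4.04 to 4.34, of Ppa1 from 3.10 to 3.54, of Fam89a from 2.94 to 3.22 and of Serinc5 from 2.57 to 2.92. That of Rras2 ran from 2.64 to 3.32, of Smim5 from 3.36 to 4.03 and of Slc25a13 from 3.17 to 3.74. The widest ranges were those of Sh3kbp1, from 1.87 to 3.12, and Rhbdl2, from 2.10 to 4.27, the pair with the most probe sets. The low end of each came from a mean or median that takes bounds set by the floor as values.

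**Figure D4:**
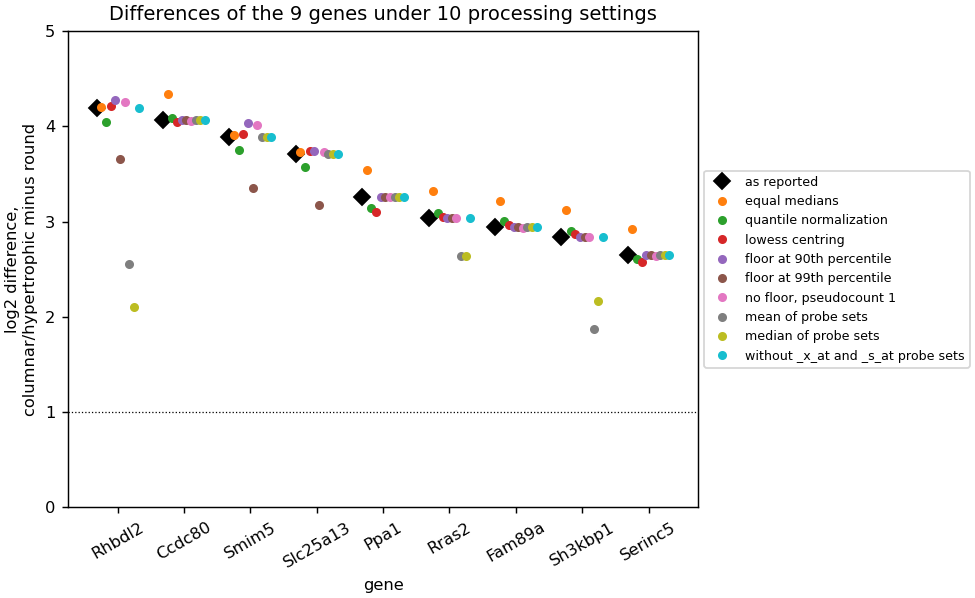
The log2 difference, columnar/hypertrophic minus round, of each of the 9 genes under the reported settings and under the 9 alternatives. Every value lies above the line of a 2-fold difference; Sh3kbp1 and Rhbdl2 spread most.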

How the data were processed

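Gene expression in embryonic mouse cartilage was measured on 2 Affymetrix whole-genome arrays, 1 per group, each from RNA mixed from 3 portions. The authors deposited 1 intensity per probe set, a linear signal. Per the labels the tool was MAS5, whose version is not given in the sources that were read, while the study's methods name RMA. The deposited intensities are linear with a trimmed mean of 500.0 on each array and were taken as MAS5 signals. Scaling to a common mean assumes equal total signal, and weak MAS5 signals are noisy.

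Of 45101 probe sets, 34945 named 1 gene, 932 named several and were left out, and 9211 were unnamed. Platform annotation gave the names, updated through the RefSeq gene table of GRCm38.p6, which 34741 probe sets matched by identifier. The floor, 100.5, was the 95th percentile of the signals of 87 chemosensory receptor probe sets on both arrays. Among all probe sets, 55.0% passed it on the round array and 50.8% on the other. Each gene took its brightest probe set by mean log2 signal. A gene was measured if it passed the floor on at least 1 array, which 11703 did, 10235 of them on both arrays. No test was possible with 1 array per group; precision is limited by the number of arrays.

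The genes and the lists of relatives, markers and motifs were chosen with earlier results of these data known. The genes named are all 9 with each probe set, relatives at least 2-fold different, fixed nearest relatives, neighbours in the order of differences, and fixed markers. Alternatives were 3 scalings, 3 floors, 2 summaries per gene and a filter on probe set names. The steps were tested on simulated data. Python 3.11.15, numpy 2.4.6, pandas 2.3.3 and statsmodels 0.14.6 were used. Promoter windows came from RefSeq, GRCm38.p6.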

Additional observations from a re-analysis of the deposited data

How the results depend on the processing

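With 9 alternatives and 50 results, the calls on the 9 genes did not change at 2-fold. At 4-fold all 9 were called under each alternative except the mean of probe sets, which gave 8. There Sh3kbp1 was at 1.87 on the log2 scale, a mean in which bounds entered as values. Of 81 values of single genes among the 9 under the alternatives, 72 moved by less than the standard deviation between probe sets and 9 by more. These were Rhbdl2, with 3.66 at the floor of the 99th percentile, 2.55 with the mean and 2.10 with the median of probe sets, Rras2 with 2.64 under the mean and the median, Sh3kbp1 with 1.87 and 2.17, and Smim5 and Slc25a13 with 3.36 and 3.17 at the floor of the 99th percentile. The number of the 9 genes given as bounds was 3, and it was 0 at the floor of the 90th percentile, 82.2, which lies under their round signals of 91.0, 94.7 and 98.1, and 0 without a floor, where no value can be a bound. The number of relatives at least 2-fold lower was 7, and it was 2 with equal medians, 4 at the floor of the 99th percentile and 20 with no floor and a pseudocount of 1. Equal medians moved the median log2 difference of all genes from -0.05 to 0.22. Over all genes, 504 were at least 2-fold higher and 745 lower, against 943 and 414 with equal medians, and 1582 and 2921 with no floor, where 18193 genes entered in place of 11703. The mean of probe sets, which takes a probe set under the floor on both arrays as no difference, gave 371 higher and 490 lower. No paired analysis was possible because each group has 1 array. A signal near the floor limits what can be said of Rhbdl2, Smim5 and Slc25a13 in round chondrocytes: the arrays bound their level there and do not show that it was 0.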

Other observations

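The genes beside the 9 genes on the chromosome were looked up in the RefSeq gene table after the values of the 9 genes had been seen. Of 18 such neighbours, 12 were measured, of which 3 were higher by at least 2-fold in the columnar/hypertrophic portions, none was called lower and 9 were called in neither direction. Over all measured genes 4.31% were at least 2-fold higher. Akirin1, a nuclear factor gene beside Rhbdl2, had signals of 1719 on the round and 3849 on the columnar/hypertrophic array, 2.24-fold higher. Smim6, beside Smim5, read 11.6 and 425, at least 4.23-fold higher, and Dync1i1, a cytoplasmic dynein chain gene beside Slc25a13, read 371 and 1404, 3.79-fold higher. Arv1, which overlaps Fam89a, read 195 and 370, a log2 difference of 0.92. Whether probe sets of neighbours read transcripts of each other was not tested.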
